A study of Mus musculus with 6 samples.

Results

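The TNF receptor superfamily genes described here are Tnfrsf9, Tnfrsf4, Tnfrsf18, Tnfrsf1b, Cd27, Tnfrsf14, Tnfrsf1a, Fas, Tnfrsf25 and Tnfrsf10b. They were taken from a table of 55335 genes by the Ensembl identifiers that carry these 10 symbols, and all 10 were among the 19783 genes with enough counts to be tested. The libraries came from P14 CD8+ T cells, which are TCR transgenic on the C57BL/6 strain, carry an antigen receptor for the GP33-41 epitope and are labelled as 10 weeks old. They were transferred on day 11 after tumor implantation into mice bearing B16 melanoma cells that present this epitope, and donor cells were sorted from the tumor (P14 TIL, 3 libraries) and from the spleen of those mice (P14 Sp, 3 libraries). A Percoll step before the sort is described for the tumor only. Cells of both groups thus share the transgenic receptor, the transfer and the tumor-bearing host, and no spleen of a tumor-free mouse is among the samples used here.

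Members of this family are cell surface receptors for the trimeric ligands of the TNF superfamily. One group, with 4-1BB, OX40, GITR, CD27, TNFR2 and HVEM, recruits TRAF adaptor proteins through short motifs in its intracellular tail and activates NF-kB and MAP kinases, which supports survival and expansion of T cells. The other group, with TNFR1, Fas, DR3 and the TRAIL receptor, has an intracellular death domain that binds TRADD or FADD and can lead to caspase activation or to NF-kB. CD27 is carried by resting T cells, whereas 4-1BB and OX40 are known as receptors that T cells gain after antigen recognition.

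Total counts were 35095261 to 38263483 per library. The T cell genes Cd3e, Cd8a and Cd8b1 were abundant in both tissues, at 594 ± 7.4, 645 ± 21.4 and 751 ± 36.9 CPM in tumor and 634 ± 4.66, 364 ± 6.62 and 1170 ± 12 CPM in spleen (SD, n = 3 each; CPM scales counts to equal library totals). Tumor replicate 3 stood apart from the other tumor libraries, with a chi-square per degree of freedom of 33.2 and 19.7 against them, compared with 9.06 between those and 2.19 to 3.48 among spleen libraries. Markers of B cells, macrophages and dendritic cells were lower in tumor. The summed level of 12 B cell markers was 11.2 to 13.7 CPM in tumor and 632 to 644 CPM in spleen, that of 12 macrophage and monocyte markers 41.6 to 43.5 and 274 to 292 CPM, and that of 8 dendritic cell markers 45.2 to 49.1 and 164 to 169 CPM. Cr2, a B cell gene, and the dendritic cell genes Clec9a, Siglech and Cd209a were at 0 counts in all tumor libraries. Heat shock genes were higher in tumor for 9 of 9 (summed level 4390 to 4610 against 1650 to 1670 CPM). Of 12 immediate early genes, 7 were higher and 3 lower (1650 to 1840 against 1610 to 1730 CPM). Of 4 NK cell markers, 2 were higher and 2 not called (5.25 to 7.24 against 4.16 to 5.13 CPM). Of 7 erythroid, platelet and granulocyte markers, 2 were higher, both globin genes, and 5 lower. Beside these counts, 34.8% of all genes tested were higher and 35.9% lower. Melanoma markers were lower in sum (9.65 to 10.9 against 19.4 to 21.4 CPM, mostly Pmel), but the melanocyte genes Dct and Tyrp1 were at 0.46 ± 0.018 and 0.575 ± 0.304 CPM in tumor, with 0 counts of Tyrp1 in spleen. In bulk samples, fewer cells of a type and less RNA per cell cannot be told apart. The codes of the libraries end alike within a tissue and differ between tissues, and any batch it may stand for cannot be told apart from the tissue.

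Of the 10 receptor genes, 5 were higher and 3 lower in tumor, and Cd27 and Fas were not called (adjusted p below 0.05 by Benjamini-Hochberg, quasi-likelihood test of edgeR). Over all genes tested, 70.7% were called at this threshold, 34.8% higher and 35.9% lower, so the number of members called is near the background. The sizes of the changes are set beside those of all genes for description only. The members were chosen with earlier results of these data known, so larger sizes are no test of the family. Against a null of a 2-fold change, Tnfrsf9, Tnfrsf4 and Tnfrsf18 were higher and Tnfrsf25 was lower, 4 of 10, where 15.3% of all genes passed (5.87% higher and 9.42% lower). An absolute log2 fold change over 1 was found for 5 of the 10, against 24.6% of all genes tested, and the median absolute log2 fold change was 1.08 over the members and 0.54 over all genes. The tissues did not overlap in CPM for 8 of the 10 members and for 74.5% of all genes tested. Whether each library is a separate mouse is not in the labels, so these p-values measure only the spread between samples, which may be technical.

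**Figure D1:**
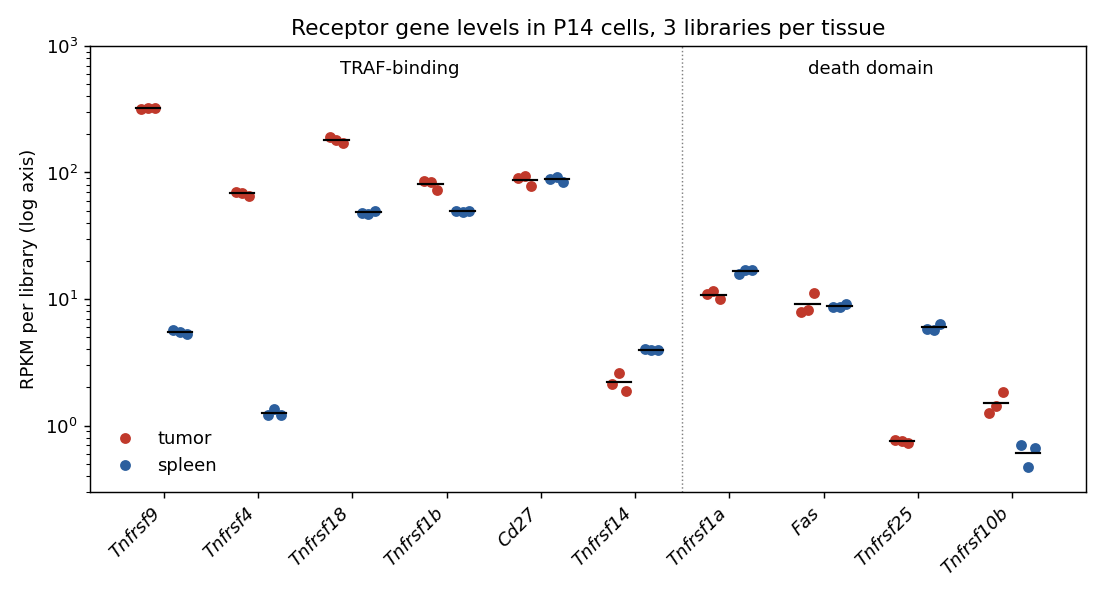
Level of each receptor gene in each library, in RPKM (CPM per kb of merged exons, log axis); points are libraries, red for tumor and blue for spleen, and black lines are the means. Tnfrsf9 and Tnfrsf4 lie far apart between tissues, while the points of Cd27 and of Fas overlap.

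Among the TRAF-binding receptors, 4 of 6 rose and 1 fell, where 34.8% of all genes tested were higher and 35.9% lower. The median log2 fold change of these receptors was 1.34 (all genes tested: -0.02). Heat shock genes (9 of 9), immediate early genes (7 of 12, with 4 past the 2-fold test), NK cell markers (2 of 4) and the melanoma marker Dct were higher in the same libraries, and their part in these rises was not tested. The 3 largest rises all belonged to genes of chromosome 4, and the promoters of these 3 and of Tnfrsf25, the member that fell most, are shown so that the sequence can be set beside the change. Each runs 5′ to 3′ along the gene's strand, from 250 bases before to 50 bases after a start site of RefSeq (GRCm38.p6, the assembly behind mm10), and capitals mark matches to the consensus of NF-kB (10 letters) or of AP-1 (TGANTCA). Both RefSeq starts of Tnfrsf9 are given. Of Tnfrsf25 only the downstream start is given, and its first start (chr4:152115684-152115983), not shown, held no match to either consensus.
Tnfrsf9, first start (chr4:150919905-150920204, + strand): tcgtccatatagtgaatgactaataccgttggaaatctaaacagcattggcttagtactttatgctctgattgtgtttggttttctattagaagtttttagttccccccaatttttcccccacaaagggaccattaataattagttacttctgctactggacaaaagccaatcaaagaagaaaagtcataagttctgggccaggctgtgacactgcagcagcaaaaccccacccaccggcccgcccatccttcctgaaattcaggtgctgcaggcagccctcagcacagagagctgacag
Tnfrsf9, downstream start (chr4:150927749-150928048, + strand): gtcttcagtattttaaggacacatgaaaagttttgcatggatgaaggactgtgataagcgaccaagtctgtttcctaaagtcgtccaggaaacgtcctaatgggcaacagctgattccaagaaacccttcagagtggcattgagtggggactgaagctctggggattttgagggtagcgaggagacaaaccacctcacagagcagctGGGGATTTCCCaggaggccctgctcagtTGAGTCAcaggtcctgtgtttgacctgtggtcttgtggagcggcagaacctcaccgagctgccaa
Tnfrsf4 (chr4:156013445-156013744, + strand): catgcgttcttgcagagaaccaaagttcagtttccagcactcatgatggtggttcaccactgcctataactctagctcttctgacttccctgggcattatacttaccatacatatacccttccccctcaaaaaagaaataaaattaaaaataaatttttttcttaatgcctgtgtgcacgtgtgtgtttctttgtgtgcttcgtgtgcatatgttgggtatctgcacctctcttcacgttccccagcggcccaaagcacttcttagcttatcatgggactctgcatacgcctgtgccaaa
Tnfrsf18 (chr4:156026072-156026371, + strand): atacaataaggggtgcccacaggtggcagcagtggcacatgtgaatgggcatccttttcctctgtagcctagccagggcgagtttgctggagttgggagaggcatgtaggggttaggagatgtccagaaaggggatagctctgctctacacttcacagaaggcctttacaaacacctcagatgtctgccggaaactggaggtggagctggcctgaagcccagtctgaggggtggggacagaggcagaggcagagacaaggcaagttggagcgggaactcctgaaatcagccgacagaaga
Tnfrsf25, downstream start (chr4:152116093-152116392, + strand): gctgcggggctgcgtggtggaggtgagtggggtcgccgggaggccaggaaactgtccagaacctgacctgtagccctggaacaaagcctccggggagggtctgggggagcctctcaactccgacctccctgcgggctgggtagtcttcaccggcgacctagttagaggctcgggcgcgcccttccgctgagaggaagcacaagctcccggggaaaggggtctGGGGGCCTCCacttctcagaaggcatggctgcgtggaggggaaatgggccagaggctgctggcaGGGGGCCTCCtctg

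The table of promoters held 11 start sites for 9 of the members (not Tnfrsf10b). Both strands were searched, and a match is a stretch of letters and no measured binding site. The NF-kB consensus was found at 2 of the 11 start sites and the AP-1 consensus at 2, where 8.46% and 7.81% of 32851 promoters of the same length held one. At the downstream start of Tnfrsf9, 2 overlapping NF-kB matches (GGGGATTTCC and GGGATTTCCC) began at bases -43 and -42 and an AP-1 match (TGAGTCA) at base -15, counted from the start site. The downstream start of Tnfrsf25 held the NF-kB match GGGGGCCTCC at bases -28 and 37, and Fas held the AP-1 match TGAGTCA at base -211. These letters were not in the windows of Tnfrsf4, Tnfrsf18, Tnfrsf1b, Cd27, Tnfrsf14 or Tnfrsf1a, nor at the first starts of Tnfrsf9 and Tnfrsf25. Members with a match thus include the largest rise, the largest fall and a gene that was not called.

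Tnfrsf9 encodes 4-1BB (CD137), a costimulatory receptor of activated CD8+ T cells. Its level was 864, 887 and 886 CPM in the tumor libraries and 15.5, 15 and 14.3 CPM in the spleen libraries. The tissues were far apart, and the tumor libraries lay closer to each other for this gene than for any other member (coefficient of variation 1.5%). It was 60-fold higher in tumor (log2 fold change 5.91, SE 0.06, adjusted p = 2.6e-13), rank 37 of all 19783 fold changes from the top. By length-scaled level (RPKM) it stood above 97.9% of the tested genes in tumor and above 52.3% in spleen.

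Tnfrsf4 encodes OX40, a costimulatory receptor best known from activated CD4+ and regulatory T cells. It was at 96.6, 94.8 and 88.6 CPM in tumor and at 1.67, 1.86 and 1.65 CPM in spleen, so that a gene with 58 to 70 counts per spleen library reached 3207 to 3626 counts in tumor. The tissues did not overlap. The rise was 55-fold (log2 fold change 5.78, SE 0.09, adjusted p = 2.5e-12), rank 42 from the top. The 5 markers of CD4+ and regulatory T cells, other cells that carry OX40, went both ways, and their part in the rise was not tested. Ikzf4 (log2 fold change 1.57) and Cd40lg (1.24) were higher past the 2-fold test, and Zbtb7b (-1.12) was lower. Cd4 (-2.77) was lower, from 7.52 ± 0.753 CPM in spleen to 1.07 ± 0.293 CPM in tumor, and Foxp3, the factor that defines regulatory T cells, was at 9.97 ± 1.36 and 10.3 ± 0.332 CPM (log2 fold change -0.02, adjusted p = 0.87).

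Tnfrsf18 encodes GITR, a costimulatory receptor that effector and regulatory T cells carry. Tumor libraries held 293, 273 and 263 CPM and spleen libraries 72.7, 72.2 and 76.2 CPM. Unlike the preceding pair, it was well expressed in spleen too, and the tissues still did not overlap. The rise was 3.83-fold (log2 fold change 1.94, SE 0.07, adjusted p = 6e-10). Gm16008, an antisense gene, shares 414 bases, 27.17% of the exons of Tnfrsf18, and had 2136 to 2538 counts in tumor and 636 to 648 in spleen. The strand setting used by featureCounts was not given in the sources used here, so reads of these overlapping genes cannot be told apart.

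Tnfrsf1b encodes TNFR2, the TNF receptor without a death domain. It was at 330, 323 and 279 CPM in tumor and 190, 186 and 191 CPM in spleen, with no overlap and the lowest tumor value in replicate 3. The rise was 1.68-fold (log2 fold change 0.75, SE 0.07, adjusted p = 2.9e-06) and did not pass the test against a 2-fold change.

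Cd27 encodes the receptor for CD70. It was at 210, 220 and 182 CPM in tumor and 206, 213 and 197 CPM in spleen. Tumor libraries lay on both sides of the spleen libraries. The log2 fold change was 0.02 with a 95% interval of -0.15 to 0.19 (adjusted p = 0.82). Leaving out tumor replicate 3 gave 0.11 and a call (adjusted p = 0.035). A miRNA gene within it, Mir8113, shares 129 of its exon bases on the same strand, and Vamp1 overlaps it on the other strand without shared exon bases.

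Tnfrsf14, which encodes HVEM, the receptor for LIGHT and for the inhibitory receptor BTLA, was the member of this group that fell. It had 112, 144 and 97 counts in tumor and 212, 212 and 201 in spleen, or 3.07, 3.76 and 2.68 against 5.8, 5.63 and 5.73 CPM. Every tumor library lay below every spleen library. It was 1.76-fold lower in tumor (log2 fold change -0.82, SE 0.14, adjusted p = 0.00025). Markers of B cells and of myeloid cells, lower in the same libraries as given above, moved with it, and their part in the result was not tested.

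Of the 4 death-domain receptors, 2 fell, 1 rose and Fas was not called, where 35.9% of all genes tested were lower and 34.8% higher. The median log2 fold change of the 4 receptors was -0.26. Tnfrsf25 encodes DR3, the receptor for TL1A. It was at 1.76, 1.72 and 1.66 CPM in tumor and 13.2, 13.0 and 14.5 CPM in spleen, with no overlap and little spread in either tissue. It was 7.75-fold lower in tumor (log2 fold change -2.96, SE 0.11, adjusted p = 1.5e-09). The fall also passed the test against a 2-fold change. The summed levels of the B cell, macrophage and dendritic cell markers, given above, were lower in the same libraries, and their part in the result was not tested.

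Tnfrsf1a encodes TNFR1, which most cell types carry. Its level was 28.2, 29.7 and 25.7 CPM in tumor and 41.0, 43.8 and 43.9 CPM in spleen. The tissues did not overlap, and tumor was 1.51-fold lower (log2 fold change -0.59, SE 0.08, adjusted p = 2.8e-05). The same markers moved with this fall, and their part was not tested. The genes of both TNF receptors were thus called in opposite directions, with TNFR2 higher and TNFR1 lower in tumor. In length-scaled level Tnfrsf1b exceeded Tnfrsf1a in every library, at 81.3 ± 7.3 against 10.8 ± 0.779 RPKM in tumor and 49.5 ± 0.719 against 16.6 ± 0.628 RPKM in spleen.

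Fas, the death receptor bound by Fas ligand, was at 16.4, 16.8 and 22.9 CPM in tumor and 17.7, 17.7 and 19 CPM in spleen. Tumor replicate 3 was above all spleen libraries and the other tumor libraries were below them. The log2 fold change was 0.07 with a 95% interval of -0.18 to 0.32 (adjusted p = 0.6), and -0.08 without tumor replicate 3 (adjusted p = 0.33).

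Tnfrsf10b encodes the mouse TRAIL receptor with a death domain. It had 249, 301 and 362 counts in tumor and 139, 96 and 126 in spleen, or 6.83, 7.87 and 10.0 against 3.8, 2.55 and 3.59 CPM. All tumor libraries lay above all spleen libraries, with wide spread in both tissues. The rise was 2.53-fold (log2 fold change 1.34, SE 0.17, adjusted p = 2.8e-05). It did not pass the test against a 2-fold change (adjusted p = 0.062), but did so in 4 of the 15 alternatives: with no filter on low counts (adjusted p = 0.011), with the replicate block (adjusted p = 0.047), and when tumor replicate 1 (adjusted p = 0.013) or spleen replicate 1 (adjusted p = 0.048) was left out. The highest value was 0.46, by DESeq2.

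**Figure D2:**
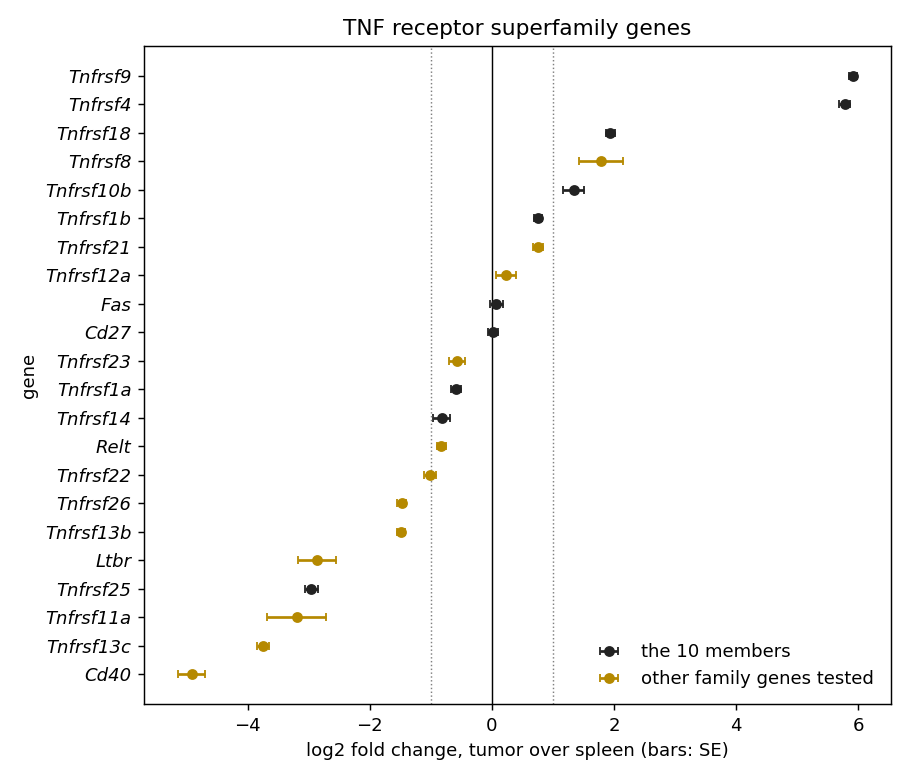
Log2 fold change, tumor over spleen, of the 10 members (black) and of the 12 other family genes tested (ochre), sorted by value; bars are SE and dotted lines mark a 2-fold change. Tnfrsf9 and Tnfrsf4 at 5.91 and 5.78 stand apart from the other family genes, of which Cd40 is lowest at -4.92.

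Between genes, levels are compared here in RPKM, which divides by exon length and assumes even coverage along the gene. In spleen the order was led by Cd27 at 88.2 ± 3.53 RPKM, followed by Tnfrsf1b and Tnfrsf18 (48.3 ± 1.44 RPKM), whose ranges overlapped. Below them came Tnfrsf1a, Fas (8.8 ± 0.353 RPKM), Tnfrsf25 (5.96 ± 0.355 RPKM), Tnfrsf9 (5.48 ± 0.217 RPKM), Tnfrsf14 (3.98 ± 0.0584 RPKM), Tnfrsf4 (1.26 ± 0.0843 RPKM) and Tnfrsf10b (0.608 ± 0.123 RPKM), with no overlap between neighbours in that order. In tumor Tnfrsf9 was first at 323 ± 4.86 RPKM and Tnfrsf18 next at 181 ± 10.1 RPKM. Cd27 (87.6 ± 8.42 RPKM) and Tnfrsf1b overlapped, and Tnfrsf4 had moved up to the fifth place at 68.4 ± 3.06 RPKM. The lower places were taken by Tnfrsf1a and Fas (9.06 ± 1.77 RPKM), which overlapped, and by Tnfrsf14, Tnfrsf10b and, last at 0.752 ± 0.0219 RPKM, Tnfrsf25.

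The makeup of the family changed accordingly. The summed level of the 10 genes was 739 to 780 RPKM in tumor and 228 to 230 RPKM in spleen. Tnfrsf9 alone made up 42.2 ± 1.67% of it in tumor and 2.4 ± 0.1% in spleen (SD, n = 3). Without Tnfrsf9 the sum was still 414 to 462 RPKM in tumor against 222 to 225 RPKM in spleen. Cd27, with nearly equal levels in both tissues, went from 38.5 ± 1.42% of the sum in spleen to 11.4 ± 0.764% in tumor. Tnfrsf18 kept a similar share, 23.7 ± 0.907% in tumor and 21.1 ± 0.681% in spleen. The 4 death-domain receptors together were at 20.9 to 23.6 RPKM in tumor and 30.9 to 33.2 RPKM in spleen, which is 2.89 ± 0.267% and 14 ± 0.473% of the sum.

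**Figure D3:**
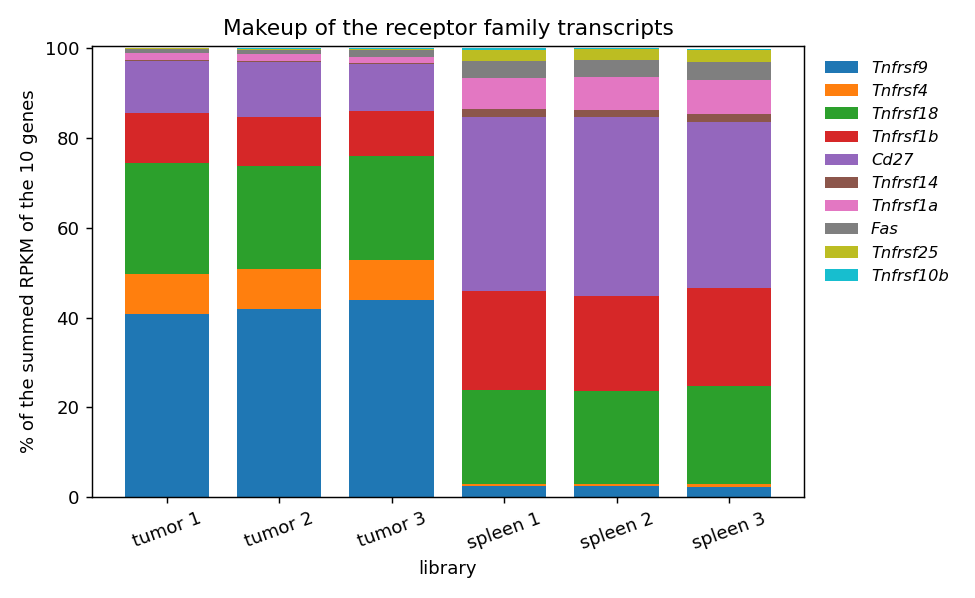
Share of each receptor gene in the summed RPKM of the 10 genes, in percent, one bar per library. Tnfrsf9 takes 40.7 to 44% of the tumor bars and 2.3 to 2.5% of the spleen bars, while the Cd27 share is 37 to 39.8% in spleen and 10.6 to 12.1% in tumor.

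Spread among replicates differed between members. In tumor the coefficient of variation ran from 1.5% (Tnfrsf9) to 19.6% (Fas and Tnfrsf10b), and in spleen from 1.45% (Tnfrsf1b) to 20.2% (Tnfrsf10b). Tumor replicate 3 held the lowest tumor CPM for 7 of the 10 members and the highest for Fas and Tnfrsf10b. Without that library the log2 fold changes of the 8 called members kept their direction and call (0.84 for Tnfrsf1b, -0.69 for Tnfrsf14, -0.52 for Tnfrsf1a, 1.2 for Tnfrsf10b).

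Among 18 other genes of the superfamily, 12 had enough counts to be tested, of which 2 were higher, 9 lower and Tnfrsf12a (0.23) not called. The shares over all genes tested were 34.8% higher and 35.9% lower. The median log2 fold change of the 12 was -1.25. Tnfrsf8 passed the count filter only through tumor, and Cd40, Ltbr and Tnfrsf11a only through spleen. The filter thus favoured the direction of these genes, and the counts and the median are description only. The higher genes were Tnfrsf21, which encodes the death-domain receptor DR6 (0.75, from 10.4 ± 0.448 to 17.2 ± 0.671 CPM), and Tnfrsf8, which encodes CD30 (1.78), at under 1 CPM in all libraries. The largest falls were in Cd40, a receptor of B cells and antigen-presenting cells (-4.92, 5.95 ± 0.346 CPM in spleen and 0.189 ± 0.0821 CPM in tumor), and in Tnfrsf13c, which encodes the B cell survival receptor BAFF-R (-3.75, 31.2 ± 1.85 and 2.27 ± 0.222 CPM). Tnfrsf26 (-1.48) and Tnfrsf13b, which encodes the B cell receptor TACI (-1.49), fell as well. B cell markers were lower in the same libraries by their summed level, given above, and their part in these falls was not tested. The decoy TRAIL receptor genes Tnfrsf22 (-1.02, adjusted p = 2.8e-06) and Tnfrsf23 (-0.57, adjusted p = 0.0022) were lower while Tnfrsf10b was higher.

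Of 12 ligands and partners of the members, 9 were tested. Beside 34.8% higher and 35.9% lower over all genes tested, 6 of the 9 were higher, 2 lower and the TRAIL gene Tnfsf10 (-0.1) not called. Tnf, the ligand of both TNFR1 and TNFR2, had the smallest p and rose 4.71-fold, from 6.99 ± 0.289 CPM in spleen to 32.3 ± 1.1 CPM in tumor. Lta, the lymphotoxin that binds the same receptors, rose 2.77-fold, and Fasl, the ligand of Fas, 1.54-fold. Ltb, the lymphotoxin subunit with the highest CPM of the list in both tissues, fell (-0.68), from 727 ± 12.5 to 444 ± 31.7 CPM. Ltbr, the receptor gene for lymphotoxin, is not one of the members. Tnfsf9, the ligand of 4-1BB, rose 2.97-fold, from 2.32 ± 0.331 CPM in spleen to 6.75 ± 0.681 CPM in tumor. Tnfsf4, the OX40 ligand, rose 10.7-fold, from 0.148 ± 0.0694 to 1.57 ± 0.332 CPM, and passed the count filter only through tumor. Per exon length both stayed below their receptors in tumor, Tnfsf9 at 5.23 ± 0.528 and Tnfsf4 at 0.855 ± 0.18 RPKM against 323 ± 4.86 RPKM for Tnfrsf9 and 68.4 ± 3.06 RPKM for Tnfrsf4. Tnfsf14, which encodes the HVEM ligand LIGHT, rose 3.98-fold, whereas its receptor gene Tnfrsf14 and the HVEM partner Btla (-0.63, adjusted p = 0.00013) were lower. Cd70, the CD27 ligand gene, was below the test filter, with 27 counts summed over tumor and 0 summed over spleen, at least 8.87-fold higher against a floor of 3 counts over the spleen libraries.

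In 5 lists of signalling genes, 44 of 45 were tested, with 9 higher, 24 lower and 11 not called, where 34.8% of all genes tested were higher and 35.9% lower. Against a 2-fold change 2 were higher, Siva1 and Tnfaip3, and 1 was lower, Rhbdf1. Of the TRAF adaptor list, 3 of 10 rose and 4 fell. Siva1, which binds the CD27 tail (1.26, adjusted p = 1.7e-07), Traf4 (1.16) and Traf1 (0.43) rose, and Tradd, the adaptor of TNFR1 and DR3 (-0.53), Ripk1 (-0.34), Traf3 (-0.36) and Traf5 (-0.29) fell. Traf2, the main adaptor of 4-1BB and OX40, was not called (-0.03, tumor 67.4 ± 1.93 CPM, spleen 70.1 ± 2.69 CPM), nor were Traf6 (-0.05) and Tank.

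Of the ubiquitin ligases and NF-kB kinases, 10 of 13 were lower and 0 higher by edgeR (1 higher at an unadjusted p below 0.05, and 0 higher by DESeq2 and by limma-voom). The median log2 fold change of all 13, called or not, was -0.29, and 0 were lower past the test against a 2-fold change. Ikbkb, the kinase of the inhibitor of NF-kB (-1.06), Sharpin, of the linear ubiquitin ligase (-0.71), Birc2, the ligase cIAP1 (-0.71), and Ikbkg, the regulatory subunit of the kinase complex (-0.57), had the smallest p. Map3k14, the NF-kB inducing kinase that TRAF3 keeps low, was lower too (-0.61, adjusted p = 0.00018). Map3k7, Tab2 and Chuk were not called. With the spleen libraries summed into 1 sample, 6 were lower.

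Among the deubiquitinases and NF-kB inhibitors, 4 of 10 rose and 4 fell. Tnfaip3, which encodes the NF-kB target and brake A20, rose 4.58-fold, from 59.1 ± 2.23 CPM in spleen to 265 ± 16.2 CPM in tumor (log2 fold change 2.2, adjusted p = 3.2e-10). It was the member of that list that passed the 2-fold test. Nfkbib (0.74), Otud7b (0.48) and Tnip2 (0.36) rose, and Nfkbie (-0.53), Cyld (-0.44), Tnip1 (-0.38) and Spata2 (-0.25) fell. Nfkbia, the gene of IkB-alpha, was not called (-0.12, adjusted p = 0.091), nor was Otulin (0.13). In the death-signalling list, 2 of 7 rose and 3 fell. Casp8, the caspase that Fas and TRAIL receptors recruit (-0.63), its inhibitor Cflar (-0.58) and the necroptosis kinase Ripk3 (-0.66) fell. Mlkl, the effector of necroptosis (0.59), and Bid, a substrate of caspase-8 (0.22), rose, and Faim (0.17) was not called, nor was Fadd (6.82 ± 0.641 against 6.97 ± 0.546 CPM, adjusted p = 0.98). Of the genes for shedding of receptors, 3 of 4 tested were lower: Adam17, the protease that releases TNF receptors from the surface (-0.51, adjusted p = 1.2e-05), Adam10 (-0.33) and Rhbdf1 (-1.93). Rhbdf2 was not called (-0.19), and 0 were higher by edgeR, at an unadjusted p below 0.05, by DESeq2 or by limma-voom.

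**Figure D4:**
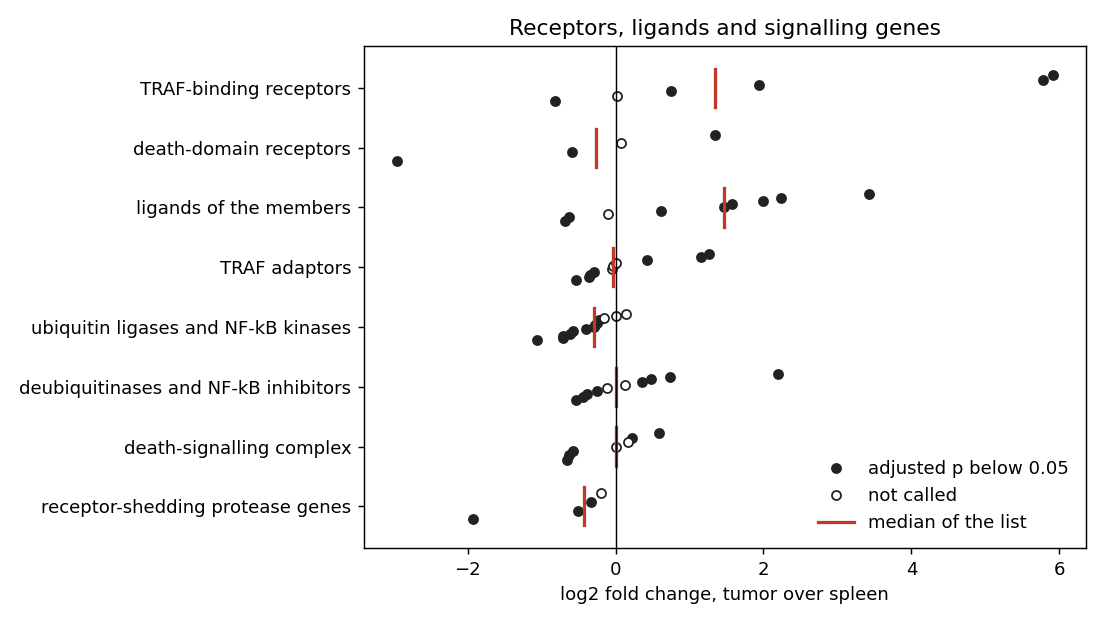
Log2 fold change, tumor over spleen, of each tested gene in the receptor, ligand and signalling lists; filled points passed an adjusted p of 0.05, open points did not, and red bars are list medians. The medians are 1.34 for the TRAF-binding receptors and 1.47 for the ligands, and from -0.42 to 0.01 for the 5 signalling lists.

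Position is shared by most of the members. In mm10, 6 of the 10 lie on chromosome 4 within 10.8 Mb: Tnfrsf1b (145213463 to 145246870), Tnfrsf9 (150914562 to 150946102), Tnfrsf25 (152115934 to 152120119), Tnfrsf14 (154921933 to 154928563), Tnfrsf4 (156013843 to 156016612) and Tnfrsf18 (156026164 to 156028895). On chromosome 6 lie Cd27 (125232622 to 125237010) and Tnfrsf1a (125349362 to 125362484), and the others are Tnfrsf10b on chromosome 14 (69767472 to 69784411) and Fas on chromosome 19 (34290666 to 34327772). The 6 genes of chromosome 4 hold the 4 members past a 2-fold change, in both directions. Tnfrsf4 and Tnfrsf18, 9.55 kb apart on the same strand, both rose, but by 55-fold and 3.83-fold.

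The nearest tested protein-coding genes on either side were read in the same way. Of 17 such genes outside the 10 members, 5 were higher, 9 lower and 3 not called. Among them, Tnfrsf8, Ltbr and Hes5 passed the count filter only through the tissue where they were higher. Most genes of this table were called as well, 34.8% of those tested higher and 35.9% lower. Park7, whose end lies 125 bases from Tnfrsf9, was not called (0.08, adjusted p = 0.23), and Camta1, which overlaps Tnfrsf9 on the opposite strand with no shared exon base, had a log2 fold change of 0.41. Sdf4, 233 bases from Tnfrsf4, rose by less than its neighbour (0.92, SE 0.05). On the other side of Tnfrsf18, 9430015G10Rik was not called (0.06). Both neighbours of Tnfrsf25 were lower, Plekhg5 at a distance of 534 bases (-1.29, SE 0.12) and Espn at 212 bases (-1.18, SE 0.12), against -2.96 for Tnfrsf25 itself. Rhobtb2, 579 bases from Tnfrsf10b, was lower (-0.98) where Tnfrsf10b was higher. Tnfrsf8 next to Tnfrsf1b (1.78) and Ltbr next to Tnfrsf1a (-2.86), the receptor gene for lymphotoxin, moved in the same direction as the member beside them. The genes on the other side of these members, Vps13d (-0.9) and Cd9 (0.3), moved in the opposite direction to the member. Vamp1, which overlaps Cd27, was lower (-1.29). Beside Fas, Acta2 was higher (0.62) and Lipa lower (-0.57). Chmp7, next to Tnfrsf10b, was not called (-0.14), and Fam213b, next to Tnfrsf14, was lower (-0.87). Hes5, next to Tnfrsf14, had 1 count in tumor and 52 in spleen, summed over libraries, a 52.8-fold fall with a 95% interval of 9.06 to 2120 from counting error.

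**Figure D5:**
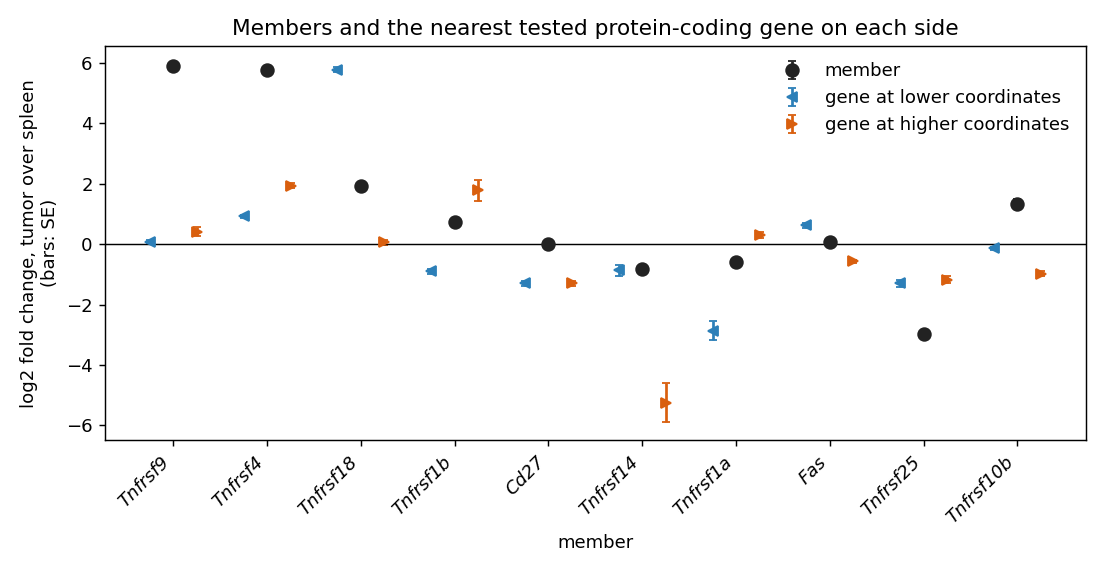
Log2 fold change, tumor over spleen, of each member (black circle) and of the nearest tested protein-coding gene at lower (blue) and higher (orange) coordinates; bars are SE, and Tnfrsf4 and Tnfrsf18 are each other's neighbours. The neighbours of Tnfrsf9 lie at 0.08 and 0.41 against 5.91 for Tnfrsf9, and those of Tnfrsf25 at -1.29 and -1.18.

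The genes whose profile over the 6 libraries was closest to 4 of the members were ranked by Euclidean distance between centred log2(CPM + 1) values, among 10680 genes with a mean of at least 10 CPM. With only 2 tissues, closeness mostly reflects a like fold change. Closest to Tnfrsf9 were the nuclear receptor gene Nr4a2 (distance 0.2), Spry1 (0.29) and the heat shock gene Hspa1b (0.47). Closest to Tnfrsf4 were Nr4a3 (0.3), Gm20481 (0.37) and Pdcd1, which encodes PD-1 (0.38). Tnfrsf18 was nearest to Mif-ps3 (0.04), the MAP kinase phosphatase gene Dusp5 (0.08) and Mif (0.1), of which the pseudogene Mif-ps3 may share reads with Mif. Tnfrsf25 was nearest to Gm11775 (0.09), Hsd11b1 (0.13) and Ripor2 (0.16).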

How the data were processed

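RNA of sorted P14 CD8+ T cells was measured in 6 libraries, 3 per tissue, with a SMARTer low-input and a stranded library kit sequenced in 50 bp single reads, according to the labels. Alignment to mm10 with STAR 2.3 and counting with featureCounts, after bcl2fastq 2.20.0.422, are listed in the submitters' processing notes, with annotation release, strand setting and multimapper rule not given in the sources used here. Whole-number counts per gene, not normalized, are what the authors deposited, with 0 rows that name no gene. Of 55335 identifiers, 54587 matched GENCODE M21 with their version and 567 without it, and 181 had no symbol.

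Groups came from the sample titles. All 6 libraries were fitted with tissue as the factor by the quasi-likelihood F-test of edgeR 4.0.16 (R 4.3.3), after TMM scaling and filterByExpr (minimum count 10, minimum total 15). A second test, glmTreat, used a null of a 2-fold change. p-values were adjusted by Benjamini-Hochberg over all genes tested. SE is the absolute log2 fold change over the square root of F, and intervals use the fit's t distribution. Folds come from the fit. CPM uses library totals, and RPKM adds merged exon length from M21. The floor for a gene at 0 is 3 counts, at most 0.0855 CPM per library. Such floors and intervals cover counting error only. The fit was tested on simulated counts.

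The members and lists were chosen with earlier results of these data known. Named were all members, up to 4 called genes per direction and list by smallest p, genes that spell out a count of 5 or fewer, chromosomal neighbours, the 3 closest profiles of 4 members, and the most abundant or defining markers. Tnfsf4, Fasl, Cd70, Map3k14, Tnfrsf22 and Tnfrsf23, and the markers Ikzf4, Cd40lg, Zbtb7b, Dct and Tyrp1, fall outside this rule and were named after their values were seen. Whether equal replicate numbers share a mouse is not in the labels, and the main fit did not pair them. Alternatives used limma 3.58.1 and DESeq2 1.42.0, other scalings and filters, a replicate block, each library left out and, added after seeing the data, spleen libraries summed. Promoters came from RefSeq, and protein sequences were not used here. Of the planned death-signalling list, 2 genes are not reported here and are not in its counts.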

Additional observations from a re-analysis of the deposited data

How the results depend on the processing

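Over 16 settings, 15 alternatives to the reported one, the 8 called members kept their direction and call in each, with log2 fold changes of 5.85 to 5.93 for Tnfrsf9, 5.73 to 5.84 for Tnfrsf4, 1.88 to 1.99 for Tnfrsf18, 0.69 to 0.84 for Tnfrsf1b, -0.96 to -0.69 for Tnfrsf14, -0.64 to -0.52 for Tnfrsf1a, -3.01 to -2.9 for Tnfrsf25 and 1.18 to 1.46 for Tnfrsf10b. Cd27, reported as 0.02, changed sign with upper-quartile scaling (-0.03), library totals alone (-0.01) and a minimum count of 50 (-0.0028), and ran from -0.03 to 0.11 when single libraries were left out, with a call only without tumor replicate 3. Fas ran from -0.08 to 0.16 when single libraries were left out and was below 0 only without tumor replicate 3. The cause was not tested. Counts moved by over 1.5 times in 3 lists. Only 1 other family gene was higher at a minimum count of 50, where fewer genes are tested. Of the ubiquitin ligases and NF-kB kinases, 6 were lower with the spleen libraries summed (and 1 death-signalling gene was higher, against 2), and 0 to 1 were higher when single libraries were left out. Tumor and spleen libraries of equal number had correlations of their deviations from the group means of -0.0259, 0.0373 and 0.0112 over 19783 genes. These values cannot tell whether equal numbers share a mouse. The main fit was planned without the replicate number, which was used only as an alternative. With the replicate block 5 members were higher and 3 lower, as without it, and Tnfrsf10b passed the test against a 2-fold change (adjusted p = 0.047). Genes with few counts, such as Tnfrsf8, Ltbr, Rhbdf1 and Cd70, limit how finely their levels can be read.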
